A study of Mus musculus with 6 samples.

Results

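The transcripts described here are those of 10 genes whose proteins fill the secondary and tertiary granules of neutrophils: Ltf, Camp, Ngp, Lcn2, Mmp8, Mmp9, Retnlg, Cd177, Pglyrp1 and Wfdc21. All 10 were found among the 28773 gene IDs of the files, and all 10 were among the 12444 genes with a mean of at least 1 FPKM over the 6 samples (a fragment count scaled to transcript length and library size, so that levels of different genes can be set side by side). The genes were chosen because they were far higher in one group than in the other, so their own levels and fold changes are given as a description and without a test. Tests are given for other granule, neutrophil and regulator genes.

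Splenic CD8+ T cells of mice were profiled by bulk RNA-seq at day 35, with 3 MWA+PBS and 3 MWA+2DG samples. In both groups the mice bore a tumor that was treated by microwave ablation (MWA). MWA+PBS mice were then injected with PBS, the vehicle, and MWA+2DG mice with 2-deoxy-D-glucose (2DG), a glucose analogue that blocks glycolysis, and the injections had ended before the spleens were taken. The labels name no engineered allele in either group and give neither strain, age nor tumor line for these samples. They also name no batch, so a batch could not be told apart from the treatment. The cells came from crushed spleens after lysis of red blood cells and isolation with a commercial CD8+ T cell kit, and the labels do not say whether a sample was 1 mouse or a pool, so p-values measure the spread between these samples, which may be technical.

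Neutrophils build their granules in sequence while they mature in the bone marrow. Promyelocytes make the primary (azurophil) granules with myeloperoxidase and serine proteases, myelocytes and metamyelocytes make the secondary (specific) granules with lactoferrin and cathelicidin, and band cells make the tertiary (gelatinase) granules with Mmp9. The transcription factor C/EBPε is required for secondary granule genes, C/EBPα acts earlier, and mature neutrophils in blood keep the stored proteins after most of the transcription has ended. CD8+ T cells are not known as a source of these proteins.

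The regions upstream of the gene starts are shown first because the members moved together. Of the 10 genes, 8 had a promoter in the RefSeq table (GRCm38.p6), and Mmp9 and Wfdc21 had none. The 250 bases before each start were searched for a C/EBP motif written TTNNGCAA (TTGCNNAA on the other strand), which 5 of the 8 held: Ltf, Ngp, Lcn2, Mmp8 and Retnlg. Of all 32851 promoters in the table, 9.56% held it in the same span. The motif, with up to 20 bases on each side that stay upstream of the start, is in capitals in these stretches, written 5′ to 3′ on the strand of the gene:
Ltf, chr9:111019197-111019244, plus strand, motif starting 75 bases before the start: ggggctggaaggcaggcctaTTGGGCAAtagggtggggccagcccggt
Ngp, chr9:110419650-110419697, plus strand, 138 bases before the start: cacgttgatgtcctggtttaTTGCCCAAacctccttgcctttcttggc
Ngp, chr9:110419777-110419807, plus strand, 11 bases before the start: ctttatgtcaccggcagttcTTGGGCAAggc
Lcn2, chr2:32387928-32387975, minus strand, 216 bases before the start: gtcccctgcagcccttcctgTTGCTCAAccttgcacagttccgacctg
Mmp8, chr9:7558390-7558428, plus strand, 19 bases before the start: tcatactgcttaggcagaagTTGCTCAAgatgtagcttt
Retnlg, chr16:48872358-48872389, plus strand, 246 bases before the start: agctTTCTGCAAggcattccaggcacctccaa
Ltf and the nearer site of Ngp carried the same 8 letters, TTGGGCAA, and the sites of Lcn2 and Mmp8 also shared theirs, TTGCTCAA. The promoters of Camp, Cd177 and Pglyrp1 held none of these letters in this span. A PU.1 motif, GAGGAAG on either strand, was found in Lcn2, Mmp8 and Pglyrp1 and in 10.6% of all promoters. TATAAA on the strand of the gene was found in Cd177 only and in 7.59% of all promoters, and the STAT motif TTCNNNGAA, which reads the same on both strands, in 0 of the 8 and in 7.02% of all. These are matches of letters, and binding was not measured.

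The samples were checked before the members were read. Cd8a and Cd8b1 were between 225.8 and 507.5 FPKM in every sample, so the labelled cell type was present. All 16 T lineage genes were higher in MWA+2DG, by 0.27 to 0.69 on the log2 scale, led by Cd2, Cd8a and Cd5 and including the abundant Cd3e, Cd8b1, Lck, Trac, Trbc1, Trbc2 and Thy1. All 16 were called (limma, Benjamini-Hochberg adjusted p under 0.05), where 22.3% of all tested genes were called higher and 17.1% lower. After scaling to the 16 T lineage genes themselves, 7 of the 16 changed sign. That scaling centres the list on its own mean, so some changes of sign were fixed in advance and nothing follows from the count. The B cell genes Cd79a, Cd79b, Ms4a1 and Pax5 were higher as well, by 2.60, 1.21, 2.21 and 1.64 on the log2 scale, of which Ms4a1 and Pax5 passed the filter only through their MWA+2DG level. All 10 macrophage markers fell, from a sum of 726.2 to 779.4 FPKM to a sum of 102.3 to 111.9 FPKM, and Hmox1, C1qb and C1qc fell most. All 10 were called lower by the same test, against 17.1% of all tested genes. Of 6 kidney tubule markers, none was above 0.05 FPKM in MWA+PBS replicate 3 or in any MWA+2DG sample, but their sum was 36.2 FPKM in MWA+PBS replicate 1 and 72.1 FPKM in MWA+PBS replicate 2. Replicate 2 also held the epithelial markers at a sum of 14.3 FPKM, against 4.77 and 3.16 FPKM in the other two MWA+PBS samples and 10.7 to 11.6 FPKM in MWA+2DG. These shifts moved with the groups or with single libraries. Results after scaling to T lineage genes and without both kidney-containing samples are given below. Beyond that, the part of these shifts in the results was not tested. Read depth is unknown, since the files hold no counts.

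All 10 granule genes were higher in MWA+2DG. The sum of the 10 was 40.1, 49.7 and 39.8 FPKM in the MWA+PBS samples and 983.2, 890.7 and 951.2 FPKM in the MWA+2DG samples. The lowest MWA+2DG sample was thus far above the highest MWA+PBS sample, and the means differed 21.8-fold. The 10 transcripts together made up 0.013% to 0.0159% of all FPKM in MWA+PBS samples and 0.301% to 0.326% in MWA+2DG samples. In no gene did the groups overlap, and all 10 log2 fold changes of FPKM + 1 were above 1. Over all tested genes, 30.2% were higher in MWA+2DG without overlap and 1.24% had a log2 fold change above 1, but the genes were chosen on this contrast, so nothing follows from the counts. The median log2 fold change was 3.78 over the members and 0.05 over all tested genes. In bulk RNA, more cells of a type and more RNA per cell cannot be told apart.

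**Figure D1:**
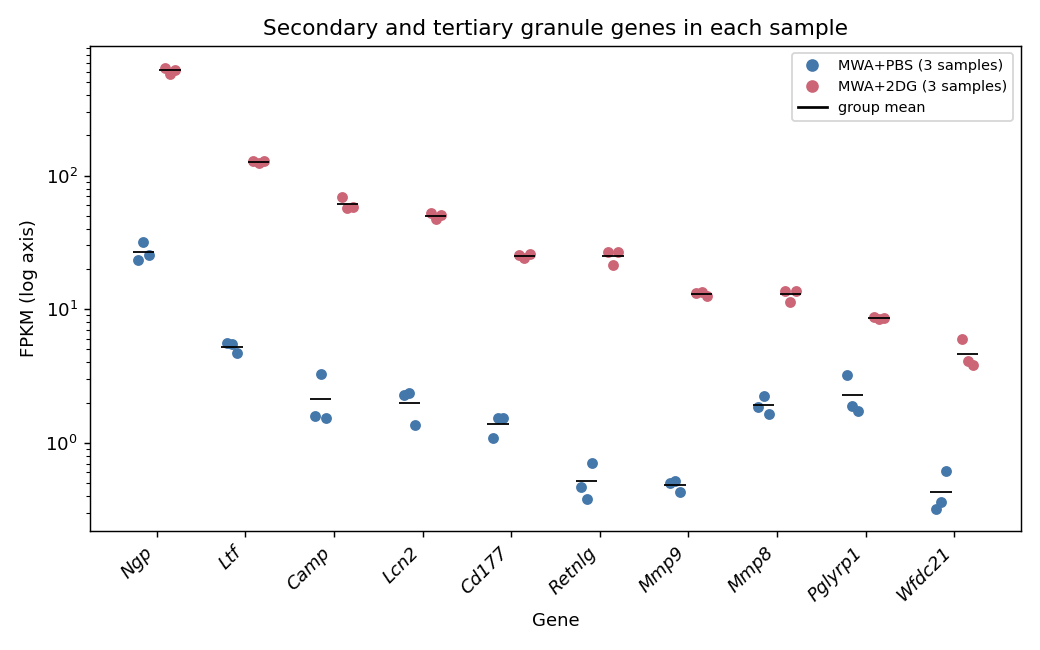
FPKM of each of the 10 granule genes (log axis) in the 3 MWA+PBS and 3 MWA+2DG samples, with points for samples and lines for group means. In every gene the 3 MWA+2DG points lie above the 3 MWA+PBS points, from Ngp at about 614 FPKM to Wfdc21 at 4.60 FPKM on average in MWA+2DG.

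The iron-binding members were Ltf and Lcn2. Ltf (ENSMUSG00000032496) encodes lactoferrin, which withholds iron from microbes, and was 5.56, 5.46 and 4.69 FPKM in MWA+PBS and 128.4, 124.2 and 128.7 FPKM in MWA+2DG. It was among the steadiest members within each group, and its mean rose 24.3-fold, a log2 fold change of 4.36 ± 0.07 (SE, n = 3 per group). Lcn2 (ENSMUSG00000026822) encodes lipocalin-2, which binds bacterial siderophores, and was 2.28, 2.36 and 1.36 FPKM in MWA+PBS and 52.8, 47.0 and 50.4 FPKM in MWA+2DG. The means differed 25-fold, with a log2 fold change of 4.11 ± 0.13 (SE). Without replicate 1 or without replicate 2 of MWA+PBS, the samples with kidney transcripts, its log2 fold change was 4.18 or 4.20, without both it was 4.43, and without replicate 3 it was 3.94.

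The cathelicidin-related members were Camp and Ngp. Camp (ENSMUSG00000038357) encodes the only mouse cathelicidin, the precursor of an antimicrobial peptide, and was 1.59, 3.25 and 1.53 FPKM in MWA+PBS and 68.7, 57.0 and 58.1 FPKM in MWA+2DG. Replicate 2 of MWA+PBS stood above the other two, and the means differed 28.9-fold, a log2 fold change of 4.36 ± 0.19 (SE). Without that replicate it was 4.60. Ngp (ENSMUSG00000032484) encodes a granule protein related to cystatins and cathelicidins, and was 23.2, 31.7 and 25.6 FPKM in MWA+PBS and 639.2, 579.9 and 622.6 FPKM in MWA+2DG. It was the highest member in every sample. Its mean rose 22.9-fold and its log2 fold change of 4.48 ± 0.11 (SE) ranked 3 among all tested genes. The related pair kept a ratio of Ngp to Camp of 9.31 to 10.7 in MWA+2DG and of 9.76 to 16.7 in MWA+PBS, so the ranges overlapped.

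Pglyrp1 (ENSMUSG00000030413), which encodes a bactericidal protein that binds peptidoglycan, moved least. It was 3.23, 1.89 and 1.74 FPKM in MWA+PBS and 8.73, 8.43 and 8.56 FPKM in MWA+2DG, a 3.75-fold difference of means and a log2 fold change of 1.57 ± 0.16 (SE). The highest MWA+2DG sample was 1.04 times the lowest, while MWA+PBS replicate 1 stood above the rest of its group.

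The matrix metalloproteinases of the 2 granule types differed in how far they moved. Mmp8 (ENSMUSG00000005800), the neutrophil collagenase of secondary granules, was 1.84, 2.24 and 1.65 FPKM in MWA+PBS and 13.8, 11.3 and 13.7 FPKM in MWA+2DG. The fold of the means was 6.76 and the log2 fold change 2.26 ± 0.11 (SE). Mmp9 (ENSMUSG00000017737), the gelatinase of tertiary granules, was 0.50, 0.52 and 0.43 FPKM in MWA+PBS and 13.3, 13.4 and 12.6 FPKM in MWA+2DG. Its means differed 27.1-fold, with a log2 fold change of 3.25 ± 0.07 (SE), which understates a change from so low a level. The ratio of Mmp9 to Mmp8 ranged from 0.232 to 0.272 among MWA+PBS samples and from 0.920 to 1.19 among MWA+2DG samples, with Mmp9 below 1 FPKM in the first group.

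Cd177 (ENSMUSG00000052212) encodes a surface glycoprotein that is stored in secondary granules and marks a subset of neutrophils. It was 1.08, 1.54 and 1.53 FPKM in MWA+PBS and 25.6, 24.3 and 25.8 FPKM in MWA+2DG. The groups were separated 18.2-fold, with a log2 fold change of 3.47 ± 0.09 (SE).

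The small secreted members were Retnlg and Wfdc21. Retnlg (ENSMUSG00000022651), a resistin-like protein of neutrophils, was 0.47, 0.38 and 0.71 FPKM in MWA+PBS and 26.9, 21.3 and 27.0 FPKM in MWA+2DG. The ratio of means was 48.1, the highest of the 10, on a base below 1 FPKM, and the log2 fold change was 4.10 ± 0.12 (SE). Wfdc21 (ENSMUSG00000051748), which encodes a small protein with a WAP domain, was 0.32, 0.36 and 0.61 FPKM in MWA+PBS and 5.94, 4.07 and 3.80 FPKM in MWA+2DG. It was the lowest member in MWA+2DG and the one with the widest spread there, a coefficient of variation of 25.3%, and its means differed 10.7-fold (log2 fold change 1.96 ± 0.16, SE). Mmp9, Retnlg and Wfdc21 were below 1 FPKM in MWA+PBS and passed the filter on mean FPKM only through their MWA+2DG level.

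The members were next compared with each other within samples. Ngp held between 57.9% and 65.5% of the summed FPKM of the 10 genes in every sample and Ltf between 11.0% and 13.9%, so the leading pair kept its place. The share of Pglyrp1 was 5.41% ± 2.31 (SD, n = 3) in MWA+PBS and 0.911% ± 0.031 in MWA+2DG, that of Mmp8 4.41% ± 0.24 and 1.37% ± 0.09, and that of Retnlg 1.24% ± 0.51 and 2.65% ± 0.24. In the order of means Pglyrp1 went from rank 3 to rank 9, Mmp8 from rank 6 to rank 8 and Retnlg from rank 8 to rank 6. The order was Ngp, Ltf, Pglyrp1, Camp, Lcn2, Mmp8, Cd177, Retnlg, Mmp9 and Wfdc21 in MWA+PBS and Ngp, Ltf, Camp, Lcn2, Cd177, Retnlg, Mmp9, Mmp8, Pglyrp1 and Wfdc21 in MWA+2DG. In MWA+PBS Pglyrp1 overlapped with Camp, Camp with Lcn2 and Lcn2 with Mmp8, as did Retnlg with Mmp9 and Mmp9 with Wfdc21, while Ngp, Ltf and Pglyrp1, Mmp8 and Cd177, and Cd177 and Retnlg did not. In MWA+2DG, Cd177 overlapped with Retnlg and Mmp9 with Mmp8, and the other neighbours in the order did not overlap.

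**Figure D2:**
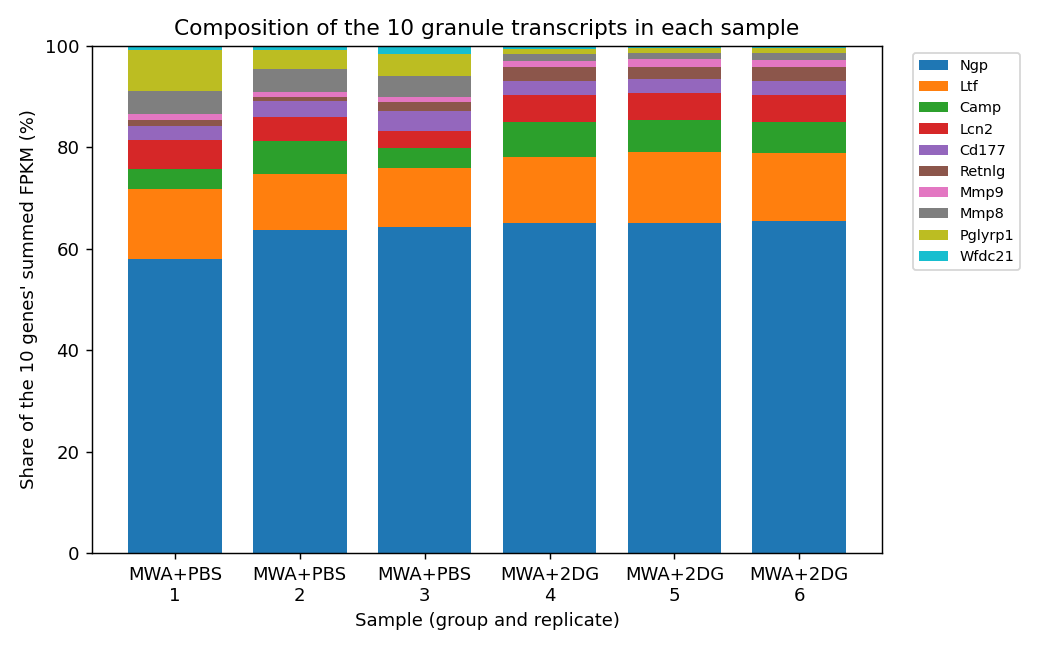
Share of each gene in the summed FPKM of the 10 granule genes, in percent (stacked bars, 1 bar per sample). Ngp takes between 57.9% and 65.5% in every bar, and the shares of Pglyrp1 and Mmp8 are larger in the 3 MWA+PBS bars than in the 3 MWA+2DG bars.

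Within groups the members often had the same high and low libraries. MWA+2DG replicate 5 was the lowest of its group in 8 of the 10 members, and MWA+PBS replicate 2 was the highest of its group in 6, with replicate 3 the lowest in 6. The coefficient of variation ranged from 1.75% to 25.3% among MWA+2DG samples and from 9.09% to 46.0% among MWA+PBS samples, where levels were lower. The members are transcripts of the same libraries, so this is a description of 6 libraries and not of independent measurements.

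The longest annotated transcripts of the members were between 434 and 3175 bases, with a median of 1298 bases, against 2893 bases over the tested genes, and their median GC content was 52.3%, against 49.2%. Ltf, Camp, Ngp and Mmp8 are on chromosome 9, Lcn2 and Mmp9 on 2, Cd177 and Pglyrp1 on 7, Retnlg on 16 and Wfdc21 on 11. The nearest protein-coding gene on each side of each member, 20 genes in all, was then examined to ask whether the change extended along the chromosome. Other members and genes without a deposited FPKM value were passed over. Of the 11 neighbours tested, 1 rose and 0 fell in MWA+2DG (limma, Benjamini-Hochberg adjusted p under 0.05), while 39.4% of all tested genes were called, 22.3% higher and 17.1% lower. Before adjustment, limma's p was under 0.05 for 2 more, Cdc25a and Ptpn23, both lower. After scaling to T lineage genes 8 of the 11 were called, all lower, and with a minimum mean of 5 FPKM the 1 call among 4 tested was a lower gene. Their median log2 fold change was -0.03, and the range was from -0.20 to 0.32. The 1 called gene was Ccdc61, next to Pglyrp1, at 4.20 ± 0.417 FPKM and 5.49 ± 0.522 FPKM (SD, n = 3), 0.32 on the log2 scale (limma adjusted p = 0.025), which turned to -0.09 after scaling to T lineage genes and was lost when any of 4 single samples or both kidney-containing samples were left out. On chromosome 9, in genes named after their values were seen, those beside Camp, Nme6 and Cdc25a, had log2 fold changes of -0.17 and -0.20 (limma adjusted p = 0.43 and 0.0981), and those beside Ngp, Ptpn23 and Klhl18, of -0.20 and 0.01 (limma adjusted p = 0.0518 and 0.939). Of the 9 neighbours too low for the test, 3 are named after their values were seen. Ceacam10, next to Cd177, was at 0.02, 0 and 0 FPKM in MWA+PBS and 0.98, 0.71 and 1.04 FPKM in MWA+2DG. Ccrl2, next to Ltf, lay the other way, at 1.61, 1.14 and 0.95 FPKM in MWA+PBS and 0.23, 0.24 and 0.50 FPKM in MWA+2DG, and so did Mmp27, next to Mmp8, at 0.18, 0.35 and 0.12 FPKM and 0.08, 0 and 0 FPKM.

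The primary granule genes, which precede the members in granule formation, went the other way. Of the 6 tested, 5 fell in MWA+2DG and 0 rose, against 17.1% lower over all genes, and the list's median was -2.09 on the log2 scale. The sum of the 7 listed genes was 336.6 to 393.5 FPKM in MWA+PBS and 62.9 to 67.0 FPKM in MWA+2DG. Mpo, which encodes myeloperoxidase, was 241.2, 200.5 and 236.5 FPKM in MWA+PBS and 32.7, 33.1 and 34.3 FPKM in MWA+2DG, which is -2.72 ± 0.08 (SE) on the log2 scale at a limma adjusted p of 5.92e-07. The groups were far apart for this gene, with the higher values in MWA+PBS. Its mean was 6.77 times as high there. The serine protease genes Elane, Prtn3 and Ctsg had log2 fold changes of -2.05, -2.23 and -2.13, and Ms4a3, a marker of granulocyte and monocyte progenitors, -1.60, each at a limma adjusted p of 1.01e-05 or less. Cd63, a granule membrane tetraspanin that many cells carry, had a log2 fold change of -0.49 and did not pass (limma adjusted p = 0.0683). The summed members were thus 0.102, 0.148 and 0.108 times the summed primary granule genes in the MWA+PBS samples and 14.7, 14.2 and 14.6 times in the MWA+2DG samples. Ltf stood at 0.0198 to 0.0272 times Mpo in MWA+PBS and at 3.75 to 3.93 times Mpo in MWA+2DG.

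Transcription factors of granulopoiesis were compared next. Cebpe, which encodes the factor of the secondary granule stage, was 1.62, 1.53 and 1.18 FPKM in MWA+PBS and 4.38, 4.70 and 4.10 FPKM in MWA+2DG. It rose by 1.15 ± 0.10 (SE) on the log2 scale, at a limma adjusted p of 0.000108, without overlap between groups. Cebpa, which encodes the factor of the earlier stage, was 5.96, 4.19 and 5.09 FPKM in MWA+PBS and 0.80, 0.67 and 0.63 FPKM in MWA+2DG. It fell, by -1.83 ± 0.12 (SE) on the log2 scale, at a limma adjusted p of 3.09e-05, and passed the filter only through its MWA+PBS level. The ratio of Cebpe to Cebpa, on the FPKM scale, ran from 0.232 to 0.365 among MWA+PBS samples and from 5.48 to 7.01 among MWA+2DG samples. Spi1, which encodes PU.1 and is also used by macrophages and B cells, fell as well, from 10.4 ± 0.436 FPKM to 4.87 ± 0.37 FPKM (log2 fold change -0.95, limma adjusted p = 5.15e-05), and so did Myb, a progenitor factor that T cells also express, from 18.1 ± 0.822 FPKM to 11.3 ± 0.782 FPKM (log2 fold change -0.64, limma adjusted p = 0.000294). Of the 6 regulators tested, 1 rose and 3 fell, against 22.3% and 17.1% over all genes, and Gfi1 and Runx1 did not pass, at -0.02 and -0.12 (limma adjusted p = 0.924 and 0.344). Cebpb, Cebpd, Klf5 and Per3 were too low for the test. The median log2 fold change of the list was -0.38. After scaling to T lineage genes all 6 passed, 1 higher and 5 lower.

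**Figure D3:**
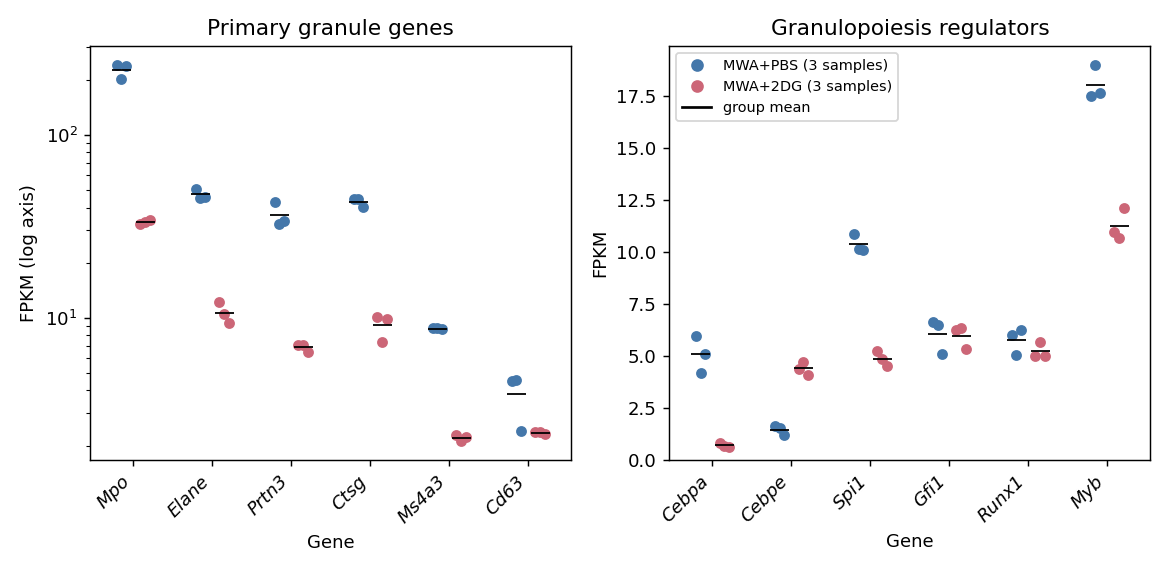
FPKM of the 6 tested primary granule genes (left, log axis) and the 6 tested regulators (right, linear axis from 0) in each sample, with points for samples and lines for group means. Mpo, Elane, Prtn3, Ctsg, Ms4a3 and Cebpa are lower in the 3 MWA+2DG samples, while Cebpe is higher there and Gfi1 and Runx1 overlap.

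Other proteins of secondary, tertiary or mixed granules were divided. Of the 16 genes tested, 11 rose and 3 fell in MWA+2DG by the same test, against 22.3% and 17.1% over all genes, and the median of the list was 0.52 on the log2 scale. Olfm4, Lrg1 and Orm1, 3 of the 11, passed the filter only through their MWA+2DG level. Olfm4, which marks a subset of neutrophils by their secondary granules, rose from 0.347 ± 0.201 FPKM to 7.77 ± 0.818 FPKM (log2 fold change 2.71, limma adjusted p = 6.24e-06). Chil3, which encodes the chitinase-like protein Ym1 and is also made by macrophages, rose from 3.26 ± 0.608 FPKM to 25.6 ± 1.5 FPKM (2.65, limma adjusted p = 3.07e-06), and Lrg1, a leucine-rich glycoprotein of granules, from 0.693 ± 0.327 FPKM to 6.06 ± 0.805 FPKM (2.07, limma adjusted p = 5.64e-05). The 3 lower genes were Slc11a1, Tcn2 and Slpi. Slc11a1, a metal transporter of phagosomes, fell from 11.9 ± 0.938 FPKM to 2.04 ± 0.115 FPKM (-2.08, limma adjusted p = 1.85e-06), Tcn2, a cobalamin carrier, from 23.1 ± 1.47 FPKM to 8.85 ± 0.446 FPKM (-1.29, limma adjusted p = 8.86e-06), and Slpi, a protease inhibitor, from 14.0 ± 1.87 FPKM to 5.54 ± 0.316 FPKM (-1.19, limma adjusted p = 8.84e-05). Cyba and Anxa3 did not pass (limma adjusted p = 0.856 and 0.297). With scaling to T lineage genes, 7 of the 16 were higher and 6 lower, and Hp and Cybb changed sign.

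Neutrophil surface and cytosolic genes served to check the cell type that the members are known from. Of the 15 listed genes, 9 were tested, 6 were higher and 1 lower in MWA+2DG, against 22.3% and 17.1% over all genes, and the median log2 fold change was 1.76. Of the 6 higher genes, 4 (Ly6g, Cxcr2, Mrgpra2b and Padi4) were below 1 FPKM in MWA+PBS and passed the filter only through MWA+2DG, which tilts the count and the median toward higher values. Ly6g, which defines mouse neutrophils, was 0.41, 0.83 and 0.37 FPKM in MWA+PBS and 19.6, 19.0 and 19.3 FPKM in MWA+2DG, so it was low in the first group and steady in the second (3.73 ± 0.11, SE, on the log2 scale, limma adjusted p = 7.98e-07). S100a8 and S100a9, whose proteins form calprotectin in the cytosol, rose by 4.50 and 4.65 on the log2 scale (limma adjusted p = 8.86e-06 and 1.79e-06). The summed members were 1.42, 1.35 and 1.94 times S100a8 plus S100a9 in the MWA+PBS samples and 1.23, 1.26 and 1.38 times in the MWA+2DG samples, ranges that overlapped. Against Ly6g they were 97.7, 59.9 and 107.6 times in MWA+PBS and 50.2, 47.0 and 49.3 times in MWA+2DG, which did not overlap, with Ly6g below 1 FPKM in MWA+PBS. Receptor genes were uneven. Cxcr2, a chemokine receptor of mature neutrophils, rose from 0.733 ± 0.30 FPKM to 5.29 ± 0.534 FPKM (1.87 on the log2 scale, limma adjusted p = 4.96e-05), and Mrgpra2b from 0.487 ± 0.0503 FPKM to 4.05 ± 0.336 FPKM (1.76, limma adjusted p = 8.88e-06). Csf3r, the receptor of granulocyte colony-stimulating factor, was 8.91 ± 1.01 FPKM and 10.3 ± 0.121 FPKM and Fpr1, a formyl peptide receptor, 3.80 ± 0.673 FPKM and 4.16 ± 1.10 FPKM, and neither passed (limma adjusted p = 0.104 and 0.681). Pilra, an inhibitory receptor of several myeloid cells, fell from 9.42 ± 0.571 FPKM to 2.56 ± 0.166 FPKM (-1.55, limma adjusted p = 5.88e-06). Trem1, Clec4d, Clec4e and Il1r2 were at or below 1.08 FPKM in every sample. The stefin genes Stfa2l1 and Stfa2, which have near-identical copies, were listed at 0 in all 3 MWA+PBS samples. In MWA+2DG Stfa2l1 was 1.45, 1.22 and 1.24 FPKM and Stfa2 0.32, 0.19 and 0 FPKM.

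Markers of other granulocytes fell, and those of monocytes were divided, where 22.3% of all tested genes were higher and 17.1% lower. Of the 5 eosinophil markers tested, Epx, Prg2, Ear2, Ear6 and Ccr3, all fell in MWA+2DG, and the sum of the list went from 50.0 to 56.6 FPKM in MWA+PBS to 10.8 to 15.4 FPKM in MWA+2DG. Epx and Ear6 passed the filter only through MWA+PBS. All 5 basophil and mast cell markers, Mcpt8, Prss34, Cpa3, Ms4a2 and Fcer1a, fell too, from sums of 86.5 to 114.7 FPKM to sums of 21.8 to 23.3 FPKM. Of the 6 monocyte markers tested, Csf1r, F13a1 and Fn1 fell, Ly6c2 and Ms4a4c rose and Ccr2 did not pass, at -0.06 (limma adjusted p = 0.491). Ly6c2 changed sign after scaling to T lineage genes. None of these lists had a marker at 0 in all samples of a group. Of the 4 epithelial markers tested, only Krt18 was called, and it was lower and above the filter in MWA+PBS only.

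**Figure D4:**
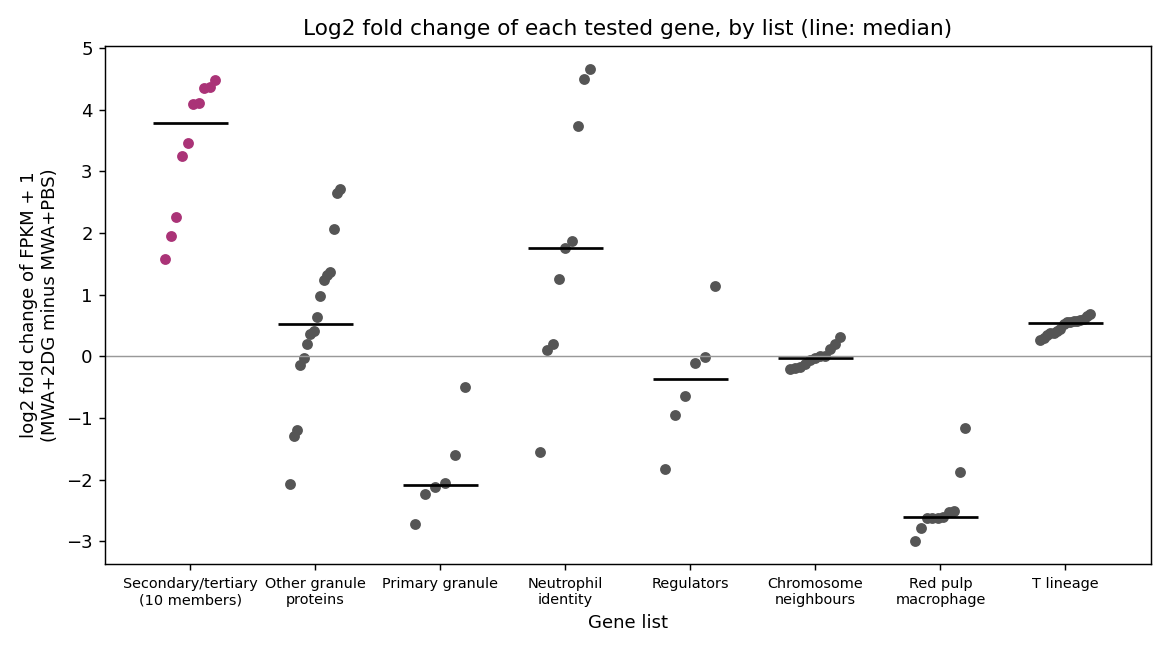
Log2 fold change of FPKM + 1 (MWA+2DG minus MWA+PBS) of each tested gene in 8 lists, with a line for each list's median. The 10 granule members lie between 1.57 and 4.48, the primary granule genes between -2.72 and -0.49, and the chromosome neighbours of the members between -0.20 and 0.32.

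Receptors, partners and inhibitors of the member proteins were mostly low or shared with other cells. Of the 5 tested, Fpr2 and Itgb2 rose and Lrp1 and Timp2 fell, against 22.3% higher and 17.1% lower over all genes, and the median of the list was 0.10 on the log2 scale. After scaling to T lineage genes all 5 passed, 1 higher and 4 lower. Fpr2, a formyl peptide receptor that the cathelicidin peptide engages, was 3.04, 3.53 and 2.73 FPKM in MWA+PBS and 12.9, 10.9 and 12.6 FPKM in MWA+2DG (log2 fold change 1.68, limma adjusted p = 1.45e-05). Itgb2, the β2 integrin chain of all leukocytes, was 164.1 ± 3.53 FPKM and 198.8 ± 11.9 FPKM (0.27, limma adjusted p = 0.00969), a rise that turned to -0.22 after scaling to T lineage genes and did not pass without the 2 kidney-containing samples (limma adjusted p = 0.0798). Lrp1, a scavenger receptor that takes up metalloproteinases and lactoferrin, fell from 25.1 ± 5.60 FPKM to 2.82 ± 0.425 FPKM (-2.76, limma adjusted p = 1.73e-05), and Timp2, a metalloproteinase inhibitor, from 18.9 ± 1.42 FPKM to 12 ± 0.527 FPKM (-0.61, limma adjusted p = 0.00043). Pecam1, which Cd177 binds, did not pass, at 0.10 (limma adjusted p = 0.201). Timp1, the inhibitor paired with Mmp9, Timp3, the lipocalin-2 receptor genes Slc22a17 and Lrp2, and Trem1, a receptor for Pglyrp1, were too low for the test.

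Genes outside all of these lists were ranked by the likeness of their pattern to the mean profile of the members over the 6 samples, among 122 genes with a log2 fold change above 1. The 8 most alike were Ighd, Fcmr, Ifitm6, Slfn4, 5830411N06Rik, Scd1, BC043934 and Cr2, with Pearson correlations between 0.998 and 0.999. These values rest on the step between the groups that all candidates share, so they are a ranking and no more. Slfn4 was 0.54, 0.80 and 0.44 FPKM in MWA+PBS and 21.4, 20.3 and 23.2 FPKM in MWA+2DG, and Ifitm6 was 2.79, 3.25 and 2.36 FPKM and 26.3, 23.3 and 24.5 FPKM. Ighd, the immunoglobulin D heavy chain gene of B cells, was 1.76, 1.75 and 1.63 FPKM in MWA+PBS and 18.0, 17.9 and 17.9 FPKM in MWA+2DG.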

How the data were processed

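Quality control by the authors used fastp, mapping used HISAT2, and FPKM came from StringTie and ballgown. The submitters' processing notes name cutadapt 1.9, HISAT2 2.0.4, StringTie 1.3.4d, UMI-tools and the build mm9, while the annotation was not named there. The deposited FPKM values, 1 file per sample, carry at most 2 decimals, no coordinates and no read counts, so depth per sample is unknown. Each FPKM value depends on the rest of its library. Symbols were found for 28689 of 28773 gene IDs in GENCODE M21. Promoters, chromosomes and neighbours came from RefSeq GRCm38.p6, whose coordinates are not those of mm9, and lengths from GENCODE M21.

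Genes with a mean FPKM of at least 1 were tested on log2(FPKM + 1) with limma 3.58.1 in R 4.3.3 (lmFit and eBayes, trend on, two-sided test of 2DG against PBS, no covariates), as the study also used limma. A gene was called at a Benjamini-Hochberg adjusted p under 0.05 over all 12444 genes tested. Low genes have understated fold changes on that scale. The fit was tested on simulated data. The members and the 15 lists were chosen with earlier results of these data known, and a few genes stood in more than 1 list. Ptx3, Bpi, Retn, Mmp7 and Mmp10 were not analysed here. A result of the B cell list is not reported here. All members are named. Of the other lists, called genes are named where at most 6 were called, otherwise the 3 largest changes in each direction, and any gene with a mean of at least 100 FPKM. Alternatives were a pseudocount of 0.1, no filter, a minimum mean of 5 FPKM, median ratio, quantile or T lineage scaling, arrayWeights, eBayes with the trend off, the study's rule (P under 0.05 and a log2 fold change beyond 0.25) and leaving out each sample.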

Additional observations from a re-analysis of the deposited data

How the results depend on the processing

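No paired analysis was possible because no replicate number is shared, MWA+PBS having 1 to 3 and MWA+2DG having 4 to 6. Leaving out both MWA+PBS samples that held kidney transcripts was chosen after seeing the data, and leaves 1 sample in that group, which is assumed to vary like the other group. All 10 members kept their direction under every alternative that tested them. Their median log2 fold change of 3.78 was 4.51 with a pseudocount of 0.1, 4.10 with a mean FPKM of at least 5, which removed Wfdc21, 3.39 with T lineage scaling, and between 3.72 and 3.82 with each sample left out. T lineage scaling moved the median of all tested genes from 0.05 to -0.37. It took the genes called from 4907, 2773 of them higher, to 8784, of which 514 were higher and 8270 lower. Under the stricter minimum of 5 FPKM, 2951 genes were called, with 8 of the other granule genes, 4 neutrophil identity genes, 2 regulators and 3 family members outside the list, because fewer genes were tested. Leaving out each sample gave 3706 to 5195 genes over all, 12 to 13 other granule genes, 5 to 6 primary granule genes, 7 neutrophil identity genes, 4 regulators, 4 partners, 5 family members and 0 to 2 neighbours; without the 2 samples with kidney transcripts these were 3508, 13, 5, 7, 4, 3, 5 and 0. The 1 neighbour called, a higher one, became 2 without a filter and with quantile normalization (1 of them lower), 3 with median ratio scaling (2 lower), 4 with arrayWeights (2 lower) and 8 with T lineage scaling (all lower). The 1 call, Ccdc61, was lost without a filter and when MWA+PBS replicate 2 or 3 or MWA+2DG replicate 4 or 6 was left out (limma adjusted p from 0.0542 to 0.0848), and without both kidney-containing samples (0.0666). With T lineage scaling Ccdc61 changed sign to -0.0900 and Itgb2 to -0.22. Except for the effect of the filter, the cause of these changes was not tested. Since the files hold FPKM only, how far depth limits each value is unknown.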

Other observations

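Relatives of the member proteins were few above the filter and were divided. Of 20 relatives listed, 5 were tested, of which 2 rose and 3 fell in MWA+2DG, against 22.3% and 17.1% over all tested genes, and the list's median was -1.19 on the log2 scale. Trf, which encodes the serum iron carrier transferrin and is the closest relative of Ltf in the list, was 87.5, 81.2 and 83.9 FPKM in MWA+PBS and 12, 12.4 and 13.1 FPKM in MWA+2DG, or -2.66 ± 0.06 (SE) on the log2 scale at a limma adjusted p of 1.87e-07. Ltf and Trf thus lay on opposite sides of the groups. Wfdc17, which like Wfdc21 encodes a WAP domain protein and is known from macrophages, fell from 3.50 ± 0.544 FPKM to 0.85 ± 0.142 FPKM (-1.28, limma adjusted p = 0.000143) and passed the filter only through MWA+PBS, and Slpi, another WAP domain gene, fell as well. Pglyrp2, the amidase of the Pglyrp1 family, was higher in every MWA+2DG sample, at 43.3, 41.5 and 41.7 FPKM against 23.1, 21.7 and 21.7 FPKM (0.90, limma adjusted p = 1.52e-05).

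Among the metalloproteinases, Mmp25, a membrane-bound enzyme of neutrophil granules, rose from 1.5 ± 0.188 FPKM to 3.92 ± 0.296 FPKM (0.98, limma adjusted p = 0.000173), and Mmp19, named after its values were seen, was too low for the test at 1.84, 1.44 and 1.88 FPKM in MWA+PBS and 0.26, 0.24 and 0.21 FPKM in MWA+2DG. Mmp2, Mmp3, Mmp12, Mmp13 and Mmp14 were at or below 1 FPKM in every sample. Retnla and Retnlb, which belong to the resistin-like family of Retnlg, did not exceed 0.19 FPKM in any sample.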
